A study of Mus musculus with 35 samples.

Results

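Mouse leukemia cells that carry the NUP98-NSD1 fusion under doxycycline control were compared after the fusion had been switched off for 3 days and while it was on. The comparison rests on 7 of the 33 RNA libraries of a series of 35 samples, chosen by their titles and treatment labels and not by any measured value. Of these, 3 libraries came from mice given doxycycline at 4 mg/ml for 3 days and 4 from untreated mice, 1 of which is titled day 3 (untreated library 1) and 3 day 5 (untreated libraries 2 to 4). The strain of all 7 is C57BL/6 and all carry the regulatable NUP98/NSD1 gene. Leukemia cells were transplanted, and bone marrow cells sorted for GFP and CD45.2 gave the RNA, which was made into stranded poly-A libraries. The labels name no promoter that drives the fusion, and do not say which libraries share a mouse or a primary leukemia. The p-values below therefore measure only the spread between libraries within a group. In the main fit that spread was estimated over all 33 RNA libraries, not from these 7 alone. A doxycycline-treated library without a fusion was not analysed here, so loss of the fusion and doxycycline itself cannot be told apart.

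NUP98 is a protein of the nuclear pore, and NSD1 is a methyltransferase that marks lysine 36 of histone H3. In acute myeloid leukemia a chromosome break can join the start of NUP98 to the end of NSD1, and the fusion protein is known for holding Hox genes and their cofactor Meis1 active, genes that are normally shut as stem cells mature into granulocytes and monocytes. Cdk6, which the series title names as a direct target of NUP98 fusions, encodes a kinase that drives cells through the G1 phase together with the D cyclins.

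The 3 day 3 libraries held 16538614 to 17911797 reads in genes and the 4 untreated ones 15636018 to 17553882. On the first principal component of these libraries, which took 47.6% of the variance, the day 3 libraries lay at 29.3 to 35.4 and the untreated ones at -28.2 to -18.8. All 12 myeloid leukemia cell genes of a list written to check the sort were detected, and their normalized counts summed to 160630 to 183824 at day 3 and to 167878 to 200133 untreated. The leukocyte gene Ptprc, which encodes CD45, had 6808 to 7412 and 5999 to 6763. Values are the authors' normalized counts, in which each library's reads are scaled by a factor of its own. Fold changes are differences of log2(value + 1) between group means from a limma fit over all 33 libraries, given with the standard error after ±, and rose, fell, higher and lower are used of genes with a Benjamini-Hochberg adjusted p under 0.05 over all features tested. On the log2(value + 1) scale changes of scarce transcripts come out too small. Of the 12 myeloid leukemia cell genes 1 was lower and 0 higher at day 3, with 8 changes negative, 4 positive and a median of -0.35. In a limma fit of only the 7 libraries 5 were lower and 2 higher.

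The fusion transcript was almost gone at day 3. It had 47.3, 52.0 and 48.1 normalized counts in the day 3 libraries, against 52599, 58498, 53629 and 54660 in the untreated ones. These come from 57, 58 and 54 reads at day 3 and from 60042 to 65443 untreated, so the untreated mean was 1094 times the day 3 mean. The log2 change was -10.10 ± 0.26 (limma adjusted p = 2.6e-21). The eGFP reporter transcript had 14.1, 20.6 and 19.6 at day 3 and 16752, 17735, 16071 and 15335 untreated, a change of -9.77 ± 0.54 (adjusted p = 5.05e-13). Cells had been sorted for GFP, and GFP protein was not measured here. Luciferase, the other marker construct, had 1615, 1766 and 1832 at day 3 against 1942, 2245, 1844 and 1943 untreated, and did not pass the test (-0.20 ± 0.68, adjusted p = 0.914).

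**Figure D1:**
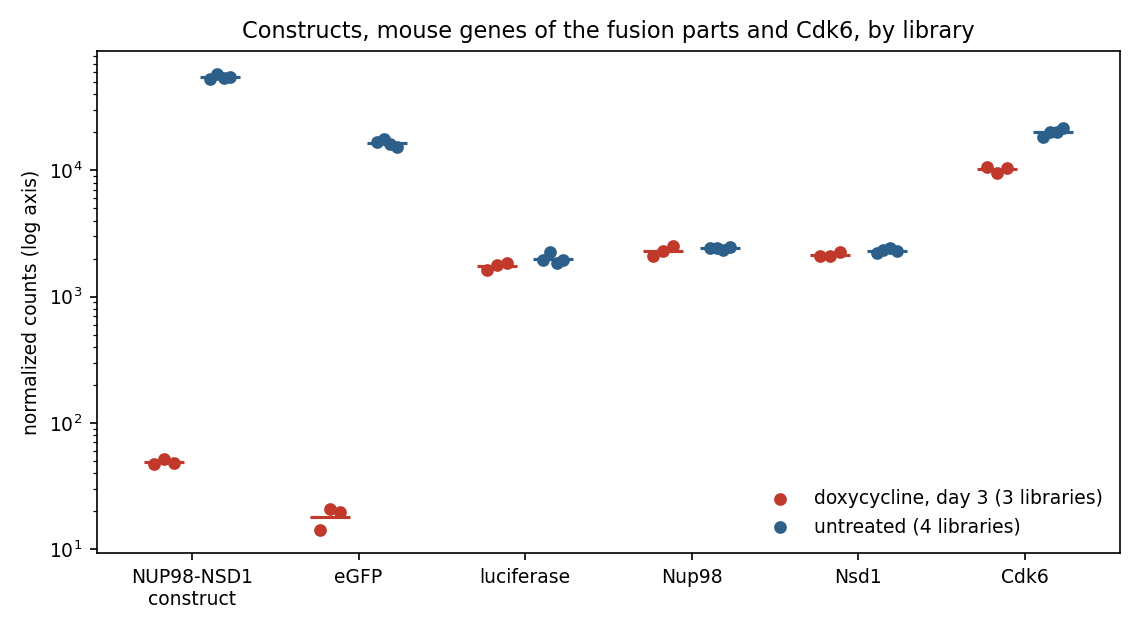
Normalized counts of the NUP98-NSD1 construct, eGFP, luciferase and the mouse genes Nup98, Nsd1 and Cdk6 on a log axis, with 1 point per library, day 3 doxycycline libraries (red) left of untreated ones (blue) and a bar at each mean. The construct lies between 47.3 and 52.0 at day 3 and between 52599 and 58498 untreated, Cdk6 lies between 9507 and 10590 at day 3 and between 18425 and 21713 untreated, and the groups overlap in the mouse genes Nup98 and Nsd1.

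The mouse's own genes of the fusion parts are features apart from the construct. Nup98 had 2096, 2298 and 2542 at day 3 and 2445, 2418, 2329 and 2476 untreated, with overlapping groups (-0.07 ± 0.11, adjusted p = 0.785). Nsd1 had 2084, 2087 and 2267 at day 3 and 2208, 2325, 2439 and 2288 untreated (-0.11 ± 0.11, adjusted p = 0.603). Of the 4 mouse genes that NUP98 fusions of this series are made from, 0 passed the test by limma over all 33 libraries, by edgeR or by DESeq2, and 1 had an unadjusted p under 0.05 (Kdm5a, lower, -0.29, adjusted p = 0.17). In a limma fit of only the 7 libraries Kdm5a did pass (adjusted p = 0.0136).

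At day 3, 577 of 12682 genes were higher (4.55%) and 580 were lower (4.57%). In 1139 of the 1157 genes called, every day 3 library lay on 1 side of every untreated library. The share of all 12682 genes with groups apart in this way is not given here. Counts of list members with groups apart, below, therefore have no share of all genes to stand beside. At least 2-fold changes were found for 168 of the higher and 186 of the lower genes, and the median log2 change was 0.64 among the higher genes and -0.73 among the lower ones. The share called grew with level, with 6.85% in the lowest and 11.7% in the highest of 4 equal bins by mean normalized count. The median over all genes was 0.01. A fit of only these 7 libraries called 1842 genes higher and 1676 lower and included 1119 of the 1157, and edgeR called 577 higher and 634 lower. Without day 3 library 1, 2 or 3 the counts were 301, 323 and 321 higher and 321, 320 and 352 lower, and without untreated library 3 or 4 they were 379 and 384 higher. Samples are bulk RNA, so fewer cells of a type and less RNA per cell cannot be told apart in any of the results that follow.

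**Figure D2:**
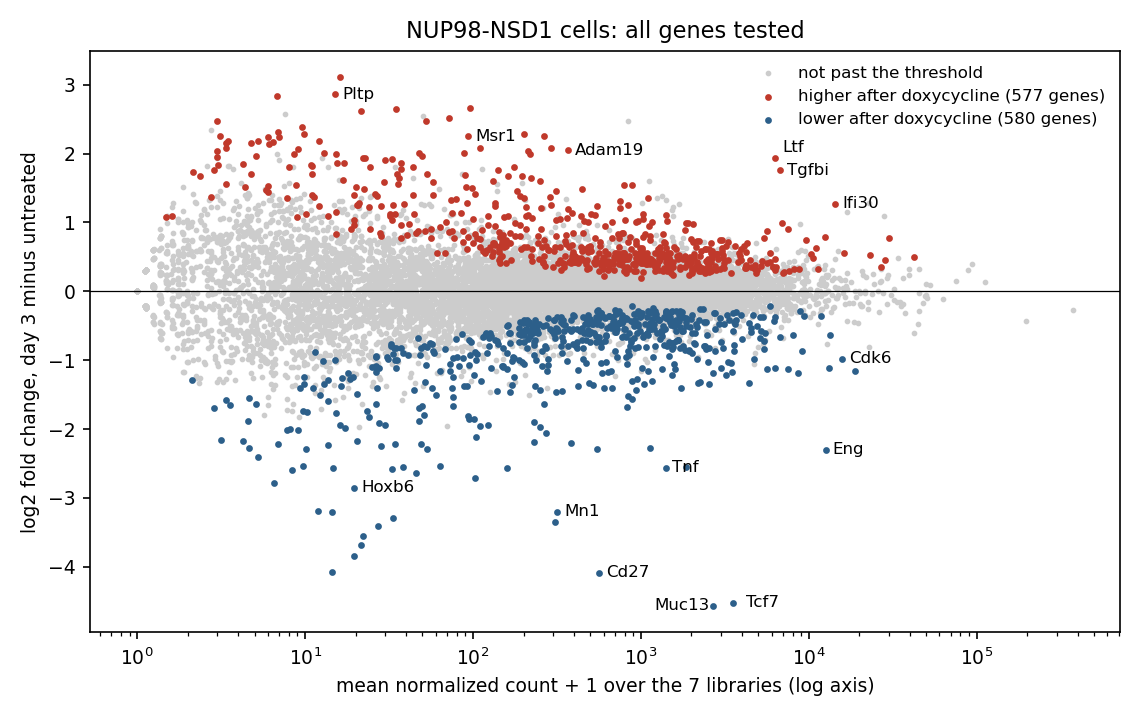
Log2 fold change (day 3 minus untreated) of every gene tested against its mean normalized count + 1 over the 7 libraries, on a log axis. Red points are the 577 genes higher at day 3 and blue points the 580 lower; the deepest falls among well expressed genes, Muc13, Tcf7 and Cd27, reach -4.09 to -4.57, while the largest rises of that level, Adam19 and Ltf, reach 2.05 and 1.94.

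Among genes above the median level (360.1 normalized counts), the 3 deepest falls were far larger than any rise. Muc13, which encodes a transmembrane mucin, had 227, 200 and 150 at day 3, against 4544, 3877, 4776 and 4980 untreated (-4.57 ± 0.60, adjusted p = 1.11e-05). Tcf7 encodes a high mobility group transcription factor of the Wnt pathway that is best known in T cells and is also active in leukemia stem cells. It had 357, 230 and 204 at day 3 and 4457, 6092, 6464 and 6939 untreated (-4.52 ± 0.56, adjusted p = 4.59e-06). Cd27, a receptor of the tumor necrosis factor receptor family, had 45.6, 60.1 and 57.9 at day 3 and 825, 896, 936 and 1108 untreated (-4.09 ± 0.40, adjusted p = 1.07e-07). In each of these 3 genes the day 3 mean was 4.23% to 5.79% of the untreated mean and no library came near the other group. At day 5, in a comparison that uses the same untreated libraries, the 3 changes were -8.73, -8.44 and -6.71.

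The next falls by size included surface, signaling and secreted proteins. Tnf, the inflammatory cytokine, had 380, 358 and 363 at day 3 and 2139, 2172, 2024 and 2366 untreated (-2.56 ± 0.28, adjusted p = 7.12e-07). Eng, the transforming growth factor beta co-receptor endoglin, was an abundant transcript, with 3927, 4266 and 3463 at day 3 and 18769, 19260, 20141 and 18272 untreated (-2.30 ± 0.25, adjusted p = 1.04e-06). The libraries of each group agreed closely and the groups lay about 5 times apart in Eng (4.93-fold) and 5.91-fold apart in Tnf. Gpnmb, a glycoprotein of macrophages, changed by -2.55, the Ral exchange factor gene Rgl1 by -2.29 and the choline dehydrogenase gene Chdh by -2.27 (adjusted p = 0.00252, 0.000126 and 5.57e-05). Arhgap32, a GTPase activating protein, fell by 1.68, Clec11a, a secreted growth factor of blood and bone progenitors, by 1.52, Lhfpl2, a membrane protein, by 1.44, the tensin gene Tns1 by 1.41 and the beta-secretase gene Bace1 by 1.41 on the log2 scale (adjusted p = 0.00873, 0.000815, 0.0339, 0.0105 and 1.3e-09). Lhfpl2 lost its call without any 1 of the 7 libraries (adjusted p up to 0.113), Arhgap32 without day 3 library 2 (0.059) and Tns1 without day 3 library 1 (0.0564).

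**Figure D3:**
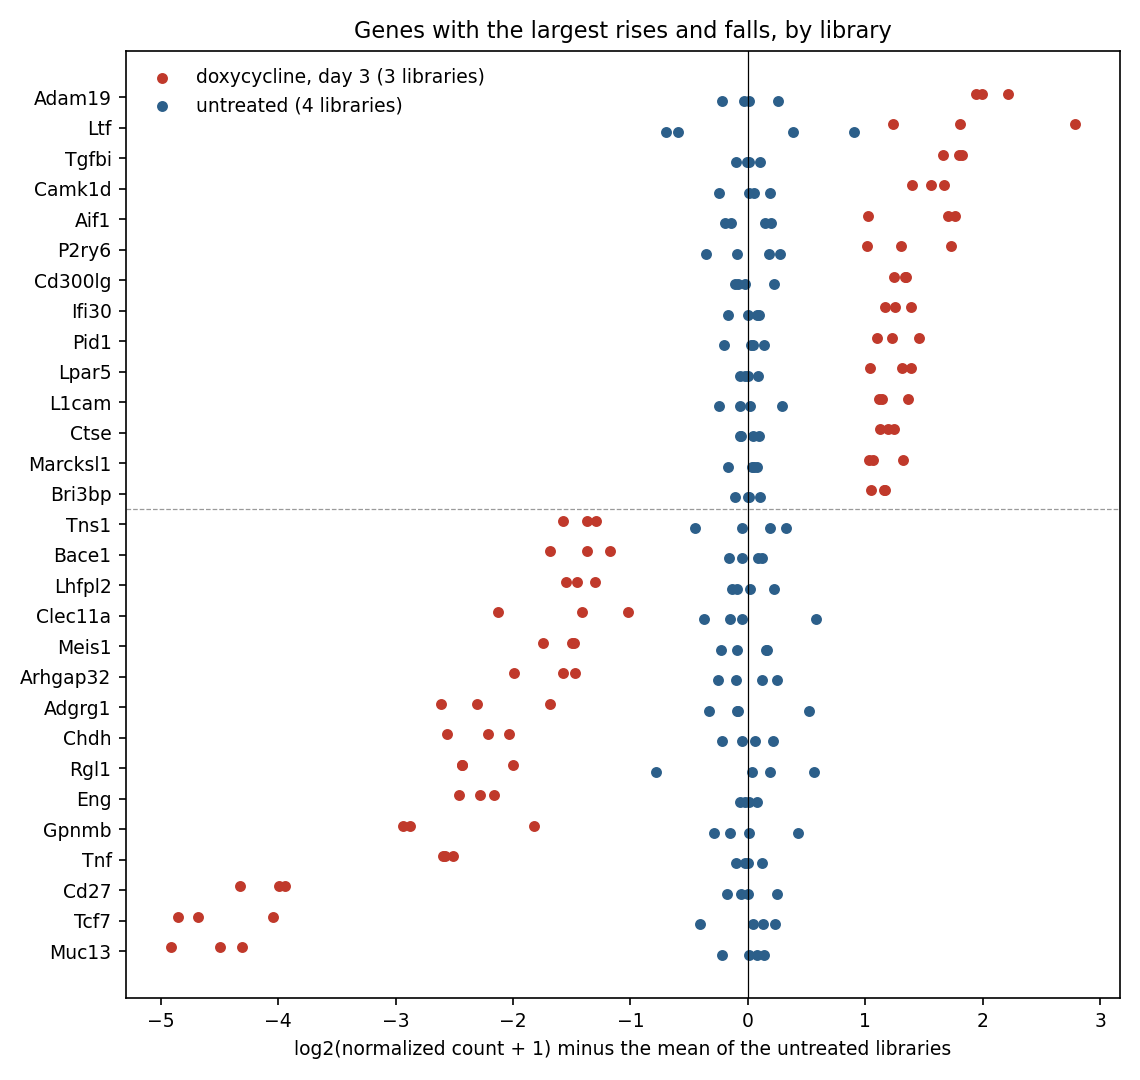
Genes with the largest rises (14, above the dashed line) and falls (15, below it) among those above the median level, as log2(normalized count + 1) of each library minus the mean of the untreated libraries. Day 3 doxycycline libraries are red and untreated libraries blue, drawn just below them; the groups do not overlap in any gene shown because that was a condition for showing them, and Ltf, Gpnmb and Rgl1 have the widest spreads.

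Hox genes and their cofactors set the identity of stem cells and progenitors. Of 20 members tested, 6 fell and 1 rose, 16 had a negative change, the median change was -0.90, and in 12 every day 3 library lay below every untreated one. Hoxa10 had 493, 548 and 388 at day 3 against 836, 876, 862 and 882 untreated (-0.87 ± 0.19, adjusted p = 0.00377), and Hoxa7 had 288, 305 and 274 against 551, 543, 596 and 593 (-0.98 ± 0.22, adjusted p = 0.00529). Hoxb6 was scarce, with 6.64, 1.79 and 1.78 at day 3 and 17.96, 15.96, 42.0 and 44.3 untreated (-2.85 ± 0.41, adjusted p = 3.31e-05). Hoxb5 had -1.17 (adjusted p = 0.0135, and 0.0815 without day 3 library 3), and Hoxa6 -1.24 (0.0347), which lost its call without 6 of the 7 libraries (up to 0.115). Meis1, the cofactor that leukemias with high Hox genes depend on, had 440, 434 and 365 at day 3 and 1150, 1049, 1373 and 1367 untreated (-1.57 ± 0.45, adjusted p = 0.0246). The groups of Meis1 lay well apart in these 7 libraries, yet its call was lost without any of 5 of them, with adjusted p up to 0.0935, among them each day 3 library (0.0681, 0.0687 and 0.0935).

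Several Hox genes that did not pass the test had groups as far apart as those that did. Hoxa9, a gene known for its high level in many acute myeloid leukemias, had 496 to 676 at day 3 and 1240 to 1381 untreated (-1.15, adjusted p = 0.233). It passed by edgeR (adjusted p = 0.00246), by DESeq2 (1.67e-08) and in a fit of only the 7 libraries (0.00131). The same holds for Hoxb2 (-0.99, 0.0845) and Hoxb3 (-1.22, 0.0568), which had 0.0129 and 0.00926 by edgeR. The count of Hox list members lower was 10 by edgeR, by DESeq2 and with a pseudocount of 8, 12 in the fit of 7 libraries, 4 with a pseudocount of 0.5 and 3 without day 3 library 3. Hoxb4, with 193 to 254 at day 3 and 180 to 238 untreated, had 0.07 (adjusted p = 0.951), so the cluster did not move as a block. Pbx3, another cofactor, was the member that rose (0.64, adjusted p = 0.0131), though not without day 3 library 2 (0.0952) or untreated library 2 (0.0503). In NUP98-DDX10 and NUP98-JARID1A cells the list had medians of -0.64 and -0.66 at day 3.

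Genes of stem cells and progenitors formed another list with falls. Of 31 members tested, 8 fell and 0 rose, with 0 higher by edgeR or DESeq2 and 1 at unadjusted p under 0.05, and the median was -0.56. Muc13, described above, led them. Mn1, a transcriptional coregulator whose excess causes leukemia in mice, had 68.0, 57.4 and 41.0 at day 3 against 429, 544, 498 and 576 untreated (-3.20 ± 0.56, adjusted p = 0.000316). Adgrg1, the adhesion receptor GPR56, had 91.2, 113 and 175 at day 3 against 527, 806, 530 and 447 untreated (-2.20 ± 0.31, adjusted p = 2.36e-05). Sox4, a transcription factor of progenitors, had 58.1, 72.6 and 97.1 at day 3 against 275, 346, 394 and 365 untreated (-2.19 ± 0.45, adjusted p = 0.00186). In all 3 genes the highest day 3 library lay far below the lowest untreated one. The stem cell factor receptor gene Kit, with 232, 223 and 376 at day 3 against 807, 734, 697 and 554 untreated (-1.36 ± 0.38, adjusted p = 0.0225), lost its call without day 3 library 1 (0.102) or 2 (0.106) or untreated library 1 (0.0572). Myb, a transcription factor that keeps progenitors dividing, had 3172 to 3676 at day 3 and 6604 to 8752 untreated (-1.13, adjusted p = 0.0287), and lost its call without any of 5 of the libraries, each day 3 library among them (0.0669, 0.0951 and 0.0965). Myb was named after its values were seen, as were the other list members named only as examples, such as Hoxa9, Aurkb and S100a6. Tcf4, a partner of basic helix-loop-helix factors, had -0.57 (0.00904), and Egfl7, a secreted vascular factor, -1.15 (0.043), which lost its call without any 1 library (up to 0.141). The surface marker gene Cd34 (-0.42, adjusted p = 0.809), the receptor gene Flt3 (-0.76, 0.253) and the transcription factor gene Gata2 (-0.54, 0.496) did not pass, though Flt3 did in the fit of 7 libraries (0.0209). The count of members lower was 5 without day 3 library 1 or 2, and in the fit of 7 libraries it was 17.

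The largest rise among genes above the median level was that of Adam19. This membrane metalloprotease gene had 719, 596 and 618 at day 3 against 151, 184, 155 and 132 untreated (2.05 ± 0.34, adjusted p = 0.00016). Tgfbi, a secreted adhesion protein of monocytes and macrophages, had 11728, 10479 and 11555 at day 3 against 3559, 3312, 3336 and 3104 untreated (1.76 ± 0.20, adjusted p = 1.72e-06). Ifi30, the thiol reductase that unfolds antigens in lysosomes, had 21219, 23324 and 20029 at day 3 against 9497, 9380, 7908 and 8892 untreated (1.27 ± 0.16, adjusted p = 8.16e-06). In Tgfbi and Ifi30 all libraries of a group lay close together and each day 3 library had more than double the level of every untreated one. Camk1d, a calcium and calmodulin dependent kinase, had 1145, 1386 and 1284 at day 3 against 438, 450, 494 and 366 untreated (1.54 ± 0.14, adjusted p = 4.55e-08).

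Further rises in this set were the actin bundling gene Aif1 (1.49, adjusted p = 0.00138), the nucleotide receptor gene P2ry6 (1.35, 0.00793), the CD300 family gene Cd300lg (1.31, 0.000271) and Pid1 (1.26, 0.000469), an adaptor of phosphotyrosine signaling. The lysophosphatidic acid receptor gene Lpar5 (1.24, adjusted p = 0.000142), the adhesion gene L1cam (1.21, 0.00214) and the aspartic protease gene Ctse (1.19, 0.007) followed. The membrane-associated protein genes Marcksl1 and Bri3bp had 1.14 and 1.12 (adjusted p = 7.13e-05 and 1.8e-06). P2ry6 lost its call without day 3 library 2 (0.0675).

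Genes of monocytes and macrophages were more often higher than lower, with 8 of 33 members higher, 1 lower and a median of 0.40. Msr1, a scavenger receptor of macrophages, had 168, 199 and 139 at day 3 against 48.8, 23.5, 33.1 and 35.9 untreated (2.25 ± 0.33, adjusted p = 5.27e-05). S100a10, an annexin partner, had 17433, 16036 and 15840 against 9993, 9822, 8798 and 9518 (0.79 ± 0.11, adjusted p = 3.02e-05). Clec4a1, a lectin receptor, had 0.79 (adjusted p = 0.00377) and Fcgr1, the high affinity IgG receptor, 1.60 (0.00516). S100a6, a calcium binding protein (1.11, adjusted p = 0.0343), and Lgals3, galectin-3 (0.75, 0.0467), lost their calls without 6 and 7 of the libraries (up to 0.145 and 0.141). Tgfbi, above, belongs to this list, and so does Gpnmb, the member that fell. Msr1 and S100a10 had no overlap between the groups. The list's change was not general: the colony stimulating factor receptor gene Csf1r (0.15, adjusted p = 0.671), the lipopolysaccharide co-receptor gene Cd14 (0.37, 0.393) and the inflammatory monocyte gene Ly6c2 (-0.60, 0.0673) did not pass. Ly6c2 passed by DESeq2 (0.0269), and Ly6c2 and Cd14 in the fit of 7 libraries (0.0154 and 0.0264). The summed level of the list was 218125 to 235106 at day 3 and 216500 to 232978 untreated, so the ranges overlapped. Without day 3 library 2 or 3, or untreated library 3 or 4, 5 members were higher, and in the fit of 7 libraries 14. At day 5 the list median was 1.39, and at day 3 it was 0.02 in NUP98-DDX10 and 1.05 in NUP98-JARID1A cells.

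Of 32 transcription factor genes of granulocyte and monocyte fate, 6 rose and 1 fell, with a median of 0.39. Id2, an inhibitor of basic helix-loop-helix factors, had 956, 965 and 1208 at day 3 against 528, 637, 564 and 586 untreated (0.84 ± 0.21, adjusted p = 0.0089, and 0.0669 without day 3 library 3). Nr4a1, a nuclear receptor of monocytes, had 215, 230 and 163 against 59.9, 99.5, 110 and 68.5 (1.28 ± 0.31, adjusted p = 0.00828, and 0.0516 without day 3 library 2). Neither gene's groups overlapped. Gfi1, a repressor needed for neutrophils, was the member that fell (-1.05, adjusted p = 0.0346), and lost its call without any of 6 libraries (up to 0.197). The count of members higher was 1 without day 3 library 2 or 3, 2 without untreated library 3 or 4, and 3 without day 3 library 1, and it was 12 in the fit of 7 libraries. Spi1, which encodes the myeloid master regulator PU.1, had 4219 to 4686 at day 3 and 2955 to 3131 untreated but did not pass (0.54, adjusted p = 0.144, 0.123 by edgeR and 0.0984 by DESeq2, but 0.000848 in the fit of 7 libraries).

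The granule genes of neutrophils, which mark steps of granulocyte maturation, had medians of opposite sign in the 2 lists, with 1 member called in each. In the list of primary granule genes, made at the promyelocyte stage, 1 of 11 fell, 0 rose (0 also by edgeR, by DESeq2 and at unadjusted p under 0.05), 7 had day 3 libraries all below the untreated ones, and the median was -0.56. Ctsg, the protease cathepsin G, had 10984, 10650 and 11920 at day 3 against 24338, 25533, 24631 and 24440 untreated (-1.15 ± 0.35, adjusted p = 0.0384). Its groups were tight and far apart, but its call was lost without any 1 of the 7 libraries (adjusted p up to 0.116). Elane (-1.06, adjusted p = 0.0866), Prtn3 (-0.77, 0.139) and Mpo (-0.81, 0.261), which encode other primary granule enzymes, did not pass, while Elane passed by DESeq2 (0.0308) and Elane and Prtn3 in the fit of 7 libraries (0.0169 and 0.00166). In the list of later granule and mature neutrophil genes 1 of 30 rose, 0 fell (0 also by edgeR, by DESeq2 and at unadjusted p under 0.05), and the median was 0.62. That member was Ltf, lactoferrin, with 8932, 6028 and 17600 at day 3 against 4799, 1696, 3347 and 1577 untreated (1.94 ± 0.57, adjusted p = 0.0292). Day 3 library 3 had about 3 times the Ltf of library 2, and the call was lost without it (0.18) and without any of 3 other libraries. Camp (1.38, adjusted p = 0.0527) and Ngp (1.29, 0.114), 2 further granule genes, missed the threshold and passed by DESeq2 (0.0124 and 0.036), and Camp passed by edgeR (0.0387). In the fit of 7 libraries 7 primary granule genes were lower, and 5 later granule genes were higher and 3 lower. At day 5 the medians of the primary and later granule lists were -1.61 and 1.45.

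**Figure D4:**
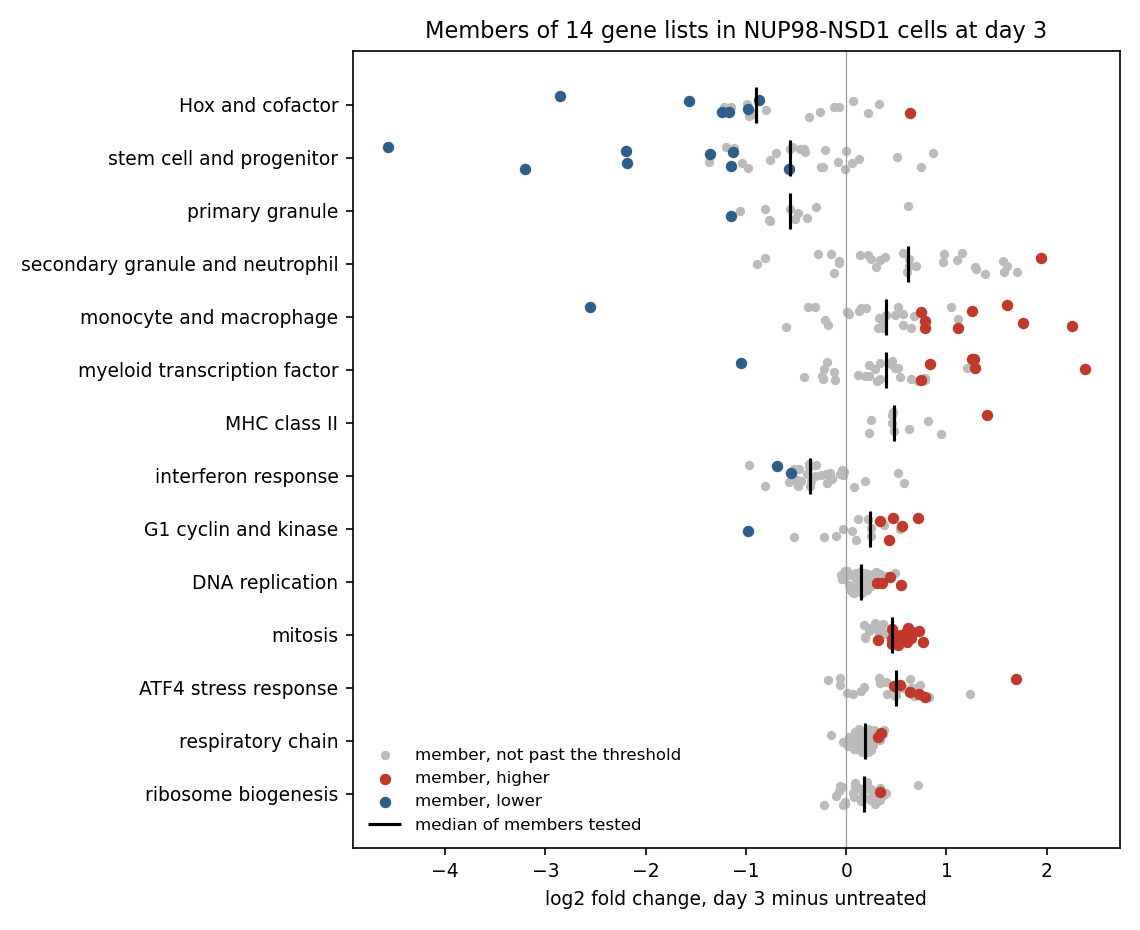
Log2 fold change (day 3 minus untreated) of every member tested of 14 gene lists, with members past the threshold in red (higher) or blue (lower), others in grey and a black bar at each list's median. The Hox and progenitor lists lie to the left with medians of -0.90 and -0.56, the primary granule list also at -0.56 and the later granule list at 0.62, and all 35 mitosis genes lie right of 0.

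Mitosis genes made up the list with the largest share of members higher. Of 35 members, 19 rose and 0 fell (0 also by edgeR, by DESeq2 and at unadjusted p under 0.05), all 35 had a positive change, in 30 every day 3 library lay above every untreated one, and the median was 0.46. Ccnb2, cyclin B2, had 5491, 5007 and 5131 at day 3 against 3281, 3589, 2901 and 3423 untreated (0.66 ± 0.09, adjusted p = 2.55e-05). Cenpa, the histone H3 variant of centromeres, had 3416, 3084 and 3029 against 2042, 2307, 1821 and 2127 (0.62 ± 0.09, adjusted p = 4.97e-05). Cdca8, a subunit of the chromosomal passenger complex, had 2917, 2715 and 2822 against 1866, 2031, 1693 and 1916 (0.59 ± 0.09, adjusted p = 5.03e-05). None of these groups overlapped, and the rises were even, close to 1.5-fold. Cdc25c, the phosphatase that activates the mitotic kinase, had 0.73 (adjusted p = 0.000113), the mitotic kinase gene Cdk1 0.65 (0.000142), Aurkb, aurora kinase B, 0.61 (0.000394) and the anaphase ubiquitin enzyme gene Ube2c 0.77 (0.00404). Mki67, the proliferation marker, had 29808 to 36202 at day 3 and 23134 to 25679 untreated (0.46, adjusted p = 0.0441), with the call lost without any of 6 libraries (up to 0.172). The list had 12 members higher without day 3 library 1 or untreated library 3. At day 3 the list median was 0.27 in NUP98-DDX10 and 0.13 in NUP98-JARID1A cells, and in NUP98-NSD1 cells at day 5, against the same untreated libraries, it was 0.18. The difference of the NUP98-NSD1 effect from the mean of the other 2 fusions passed the test in 2 of the 35 members, both higher.

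The promoters of mitosis genes share a short element, the cell cycle homology region, which is known to bind the complex that keeps these genes off outside G2 and mitosis. Its letters TTTGAA, read on either strand and chosen after the values were seen, were found in the windows of 20 of the 29 mitosis genes with a RefSeq promoter (69%), against 5466 of 27025 genes with a window (20.2%), where a window runs from 250 bases before to 50 bases after a start. The 250 bases before the start of Cdk1 (GRCm38.p6 chr10:69352913-69353162, minus strand) are printed because they hold 2 matches, in capitals, that begin 71 and 15 bases before the start.
Cdk1: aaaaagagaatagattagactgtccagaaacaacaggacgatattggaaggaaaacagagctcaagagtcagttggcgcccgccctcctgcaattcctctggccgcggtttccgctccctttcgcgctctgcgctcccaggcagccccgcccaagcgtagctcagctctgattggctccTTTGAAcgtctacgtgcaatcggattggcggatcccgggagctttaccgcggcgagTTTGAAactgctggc

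Of 44 DNA replication genes, 4 rose and 0 fell (0 also by edgeR, by DESeq2 and at unadjusted p under 0.05), with a median of 0.15. Tyms, thymidylate synthase, had 1378, 1331 and 1476 at day 3 against 1055, 995, 1051 and 1022 untreated (0.44 ± 0.10, adjusted p = 0.00635), with the groups apart. Mcm5 (0.31, adjusted p = 0.0201) and Gins2 (0.36, 0.0409), which serve origin firing, lost their calls without 4 and 6 of the 7 libraries (up to 0.124 and 0.129). Without day 3 library 1 or 3 or untreated library 4, 1 member was higher, and in the fit of 7 libraries 17 were. At day 5 the list median was -0.33.

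Cdk6 (Entrez gene 12571, GRCm38 chromosome 5, 3341004 to 3531008) had 10590, 9507 and 10475 normalized counts at day 3, against 18425, 20166, 20062 and 21713 untreated. The day 3 mean was 50.7% of the untreated mean and the groups did not overlap (-0.98 ± 0.24, adjusted p = 0.00802, and up to 0.045 in fits that left out 1 library). Of the other members of the list of G1 cyclins, kinases and inhibitors, 5 rose, so that 5 of 18 were higher and 1, Cdk6, lower. Among those 5 were 3 genes of cyclin-dependent kinase inhibitors. Cdkn2d had 874, 873 and 898 at day 3 and 608, 635, 626 and 676 untreated (0.47 ± 0.11, adjusted p = 0.00805), and Cdkn2c had 701, 509 and 639 against 470, 443, 401 and 500 (0.43 ± 0.12, adjusted p = 0.0173). Cdkn1a, the p21 gene and a target of p53, had 1389, 2330 and 1648 against 1016, 1156, 914 and 1179 (0.72 ± 0.18, adjusted p = 0.0101). All 3 inhibitors were higher in every day 3 library than in every untreated one. Cdkn1a lost its call without day 3 library 2 (0.118), and Cdkn2c without day 3 library 1 (0.14) or 3 (0.0801) or untreated library 3 (0.0669). In fits that left out 1 library, 2 or 3 members of the list were higher, and in the fit of 7 libraries 9. The other 2 were Ccne1, cyclin E1 (0.56, adjusted p = 0.0474), and Rb1, the retinoblastoma gene (0.34, 0.0456), whose calls were lost without any 1 of the 7 libraries (up to 0.165 and 0.277).

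Targets of ATF4, the transcription factor of the amino acid and endoplasmic reticulum stress response, were higher in part. Of 28 members tested 6 rose and 0 fell (0 also by edgeR, by DESeq2 and at unadjusted p under 0.05), and the median was 0.50. Mthfd2, an enzyme of mitochondrial folate metabolism, had 1063, 1214 and 1124 at day 3 against 631, 627, 645 and 727 untreated (0.79 ± 0.13, adjusted p = 0.00015). Asns, asparagine synthetase, had 92.1, 211 and 140 against 51.3, 24.4, 59.8 and 43.4 (1.69 ± 0.36, adjusted p = 0.0025). Psat1, an enzyme of serine synthesis, had 2790, 2861 and 2963 against 1724, 1737, 1813 and 1640 (0.73 ± 0.16, adjusted p = 0.00276). The day 3 libraries lay above all untreated ones in each gene, most evenly in Psat1 and least so in Asns. Atf4 itself had 3573, 3738 and 3654 against 2663, 2723, 2513 and 2596 (0.48 ± 0.11, adjusted p = 0.0063), and Ddit3, the stress factor CHOP, had 0.64 (0.0168), which was lost without day 3 library 2 (0.0857) or 3 (0.0584). Shmt2, another mitochondrial folate enzyme, had 0.54 (0.0186) and lost its call without day 3 library 1 (0.0634) or 3 (0.0778) or untreated library 4 (0.0606). At day 5 Asns and Mthfd2 had 0.08 and 0.30 against the same untreated libraries.

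ATF4 binds a composite element with C/EBP factors. The letters TGATGNAA, on either strand, were found in the windows of 7 of the 26 ATF4 list members with a RefSeq promoter (26.9%), against 1219 of 27025 genes with a window (4.51%), and in 1 of the 6 members that rose, Asns. The 250 bases before the Asns start (GRCm38.p6 chr6:7693210-7693459, minus strand) are printed for the match, in capitals, which begins 23 bases before the start. Under 80% of the tested members had a window in the Hox list (11 of 20) and in the interferon list (26 of 36), so no such comparison is given for them.
Asns: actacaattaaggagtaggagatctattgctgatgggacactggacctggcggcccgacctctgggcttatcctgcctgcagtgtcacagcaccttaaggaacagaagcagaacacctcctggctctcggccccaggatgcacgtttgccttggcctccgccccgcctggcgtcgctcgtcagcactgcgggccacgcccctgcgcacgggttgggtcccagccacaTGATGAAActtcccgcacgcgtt

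In the remaining lists few members passed the test. Over all genes tested, 4.55% were higher and 4.57% lower. Counts of 1 or 2 members in any list are to be read beside these shares. Of 36 interferon response genes, 2 fell, Parp14 (-0.69, adjusted p = 0.024) and Stat2 (-0.55, 0.043), and 0 rose (0 also by edgeR, by DESeq2 and at unadjusted p under 0.05). Parp14 and Stat2 each lost their calls without any of 4 libraries (up to 0.145 and 0.242). Of the 36 changes 32 were negative and 4 positive, with a median of -0.36. At day 3 the list median was -0.70 in NUP98-DDX10 and -0.60 in NUP98-JARID1A cells. Of 44 nuclear genes of the respiratory chain, 2 rose, Atp5b (0.32, adjusted p = 0.0112) and Cyc1 (0.35, 0.017), while 42 of 44 changes were positive and 22 genes were higher in the fit of 7 libraries. Atp5b lost its call without day 3 library 1 (0.0532), and Cyc1 without day 3 library 1 (0.0752) or 2 (0.0624). A single member rose among ribosome biogenesis genes (Nhp2, 0.34, adjusted p = 0.0227, 1 of 32), cytosolic tRNA synthetases (Gars, 0.28, 0.0294, 1 of 20), MHC class II genes (H2-DMb2, 1.40, 0.0409, 1 of 10) and the MYC network (Mxd3, 0.66, 0.0075, 1 of 12). Nhp2 and Gars each lost their calls without 5 of the 7 libraries (up to 0.0833 and 0.106), H2-DMb2 without 6 (up to 0.152) and Mxd3 without day 3 library 1 (0.0743). Among mitochondrial ribosomal protein genes 1 of 35 fell (Mrpl44, -0.33, adjusted p = 0.0223), and its call was lost without 6 libraries (up to 0.0884).

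Among lipid efflux genes 2 of 12 rose. Pltp, the phospholipid transfer protein, had 25.7, 28.7 and 30.3 at day 3 against 2.57, 4.69, 0.893 and 5.85 untreated (2.86 ± 0.44, adjusted p = 8.31e-05), and Abcg3, an ABC transporter, had 105, 124 and 92.6 against 59.0, 47.9, 32.2 and 56.0 (1.14 ± 0.27, adjusted p = 0.00595). Their groups did not overlap, though Pltp rests on few reads. Of 21 cholesterol synthesis and 20 glycolysis genes, 0 passed limma's test; 2 cholesterol synthesis genes were higher at an unadjusted p under 0.05, and among glycolysis genes 1 was higher and 1 lower. By edgeR both lists had 0, and by DESeq2 1 cholesterol synthesis gene was higher. Sqle, squalene epoxidase, had 0.63 (adjusted p = 0.0828) and Cyp51 0.49 (0.211); the glycolysis regulators Pfkfb4 and Pfkl had 0.63 (0.106) and -0.34 (0.212).

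Of genes that control cell death, Bcl2, which blocks apoptosis, had 1048, 1052 and 1044 at day 3 against 1738, 1799, 1843 and 2165 untreated (-0.84 ± 0.24, adjusted p = 0.0273), and Bcl2l11, which encodes the death promoter BIM, had 862, 1087 and 1165 against 1349, 1330, 1301 and 1391 (-0.38 ± 0.12, adjusted p = 0.0387). Both groups of libraries were apart in each gene. These were the 2 lower members of 13, and Bcl2a1b (2.24, adjusted p = 0.0131), 1 of a family of near-identical copies with at most 11.7 normalized counts, was the higher one. Bcl2 lost its call without 5 of the 7 libraries (up to 0.0838), Bcl2l11 without 6 (up to 0.287) and Bcl2a1b without day 3 library 2 (0.0649) or untreated library 3 (0.0614). Of 23 p53 targets 1 rose, Cdkn1a, and 1 fell, the sestrin gene Sesn1, with 557, 546 and 358 at day 3 against 1175, 1102, 1125 and 1325 untreated (-1.30 ± 0.29, adjusted p = 0.00439).

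Of 22 histone methylation genes, 2 fell, Ezh1, with 517, 539 and 515 at day 3 against 680, 757, 768 and 781 untreated (-0.51 ± 0.12, adjusted p = 0.00828), and the demethylase gene Kdm5b (-1.0, 0.0201), which lost its call without 4 libraries (up to 0.14). Among 21 chaperone genes 1 fell, Hspb1, at 3.32 to 16.9 at day 3 and 9.83 to 66.6 untreated (-1.64, adjusted p = 0.0204), whose groups overlapped and whose call was lost without day 3 library 1 (0.215) or untreated library 2 (0.0877) or 4 (0.0704), and by edgeR and DESeq2 0 chaperone genes passed.

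Adhesion and cytokine receptor genes changed member by member. Of 25 integrin and adhesion genes 3 fell and 1 rose. The integrin gene Itgb5 had 583, 682 and 640 at day 3 against 1440, 1648, 1550 and 1609 untreated (-1.30 ± 0.15, adjusted p = 1.42e-06). Pecam1, the CD31 gene, had 1698, 1480 and 1573 against 3138, 3051, 3261 and 3412 (-1.02 ± 0.18, adjusted p = 0.000425), and the laminin receptor gene Itga6 had 1578, 1653 and 1762 against 2843, 3276, 2900 and 2581 (-0.80 ± 0.15, adjusted p = 0.000759). Each of these 3 kept its groups apart by a wide margin. Cd24a, a glycoprotein of immature cells, was the 1 that rose (0.62, adjusted p = 0.0442), and lost its call without 5 libraries (up to 0.167). Of 27 cytokine receptor genes 3 fell, Il10rb (-0.35, adjusted p = 0.00379), Il7r (-1.53, 0.0103) and Kit, and 1 rose. That was Il1rl1, the interleukin-33 receptor gene, with 8.30, 17.9 and 10.7 at day 3 against 0, 0.939, 1.79 and 0.835 untreated (2.84 ± 0.40, adjusted p = 2.88e-05), a change that rests on few reads. Without day 3 library 1, Il10rb and Il7r had 0.0595 and 0.061, and 0 cytokine receptor genes were lower.

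Markers of other cell types were mostly scarce. Of 20 T and NK cell genes 3 fell and 0 rose (0 also by edgeR, by DESeq2 and at unadjusted p under 0.05). They summed to 597 to 1339 at day 3 and to 5184 to 8919 untreated, of which Tcf7 alone made 204 to 357 and 4457 to 6939. The T cell receptor gene Cd3e was at 0 to 1.66 at day 3 and at 0 to 1.79 untreated, and Cd8b1, Ncr1 and Klre1 were at 0 in all 7 libraries. Cd28, a co-stimulatory receptor gene, was the other abundant member, at 322 to 909 at day 3 and 594 to 1817 untreated (-1.03, adjusted p = 0.0984). Cd28 did pass by DESeq2 (0.0497) and in the limma fit without untreated library 1 (0.0204). Beside Tcf7, the members that fell were the NK cell receptor gene Klrb1c (-2.56, adjusted p = 9.56e-05, at most 28.2 normalized counts) and Il7r. Of 7 endothelial and stromal genes tested 2 fell, Pecam1, which blood cells also express, and the growth factor receptor gene Pdgfrb (-1.99, adjusted p = 0.000217, at most 33.8), and Tek, Emcn, Col3a1 and Pdgfra were at 0.

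Erythroid genes were higher in part. Of 13 tested, 3 rose, the median was 1.43, and the list summed to 387 to 853 at day 3 and to 318 to 585 untreated, while the globin genes Hba-a1, Hba-a2, Hbb-bs, Hbb-bt and Hbb-b1 were at 0 in the table for all 7 libraries. Trim10, a gene of red cell maturation, had 4.98, 6.28 and 7.13 at day 3 against 1.71, 0.939, 1.79 and 0 untreated (1.85 ± 0.55, adjusted p = 0.031), and Car1, a carbonic anhydrase, had 3.32, 1.79 and 8.02 against 0, 0, 0 and 0.835 (2.04 ± 0.52, adjusted p = 0.0125). Their groups did not overlap, and both genes hold few reads. The list had 0 members higher without day 3 library 3, with adjusted p = 0.111 for Trim10 and 0.114 for Car1. By edgeR and with a pseudocount of 8 it had 1. Trim10 lost its call without 5 of the 7 libraries (up to 0.116), by edgeR (0.274) and with a pseudocount of 8 (0.397). DESeq2 gave Trim10 no adjusted p. Car1 also lost its call with a pseudocount of 8 (0.0665). Whether erythroid cells take part in any other result was not tested.

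Of 14 B cell genes 1 rose, Bank1, an adaptor of B cell signaling, with 230, 231 and 241 at day 3 against 67.6, 76.0, 60.7 and 70.2 untreated (1.76 ± 0.31, adjusted p = 0.000436), and the list summed to 1748 to 1980 and 1848 to 2134. Of 15 dendritic cell genes 2 fell, the chemokine receptor gene Ccr7, with 8.30, 10.8 and 9.80 at day 3 against 39.4, 74.1, 50.02 and 120 untreated (-2.64 ± 0.63, adjusted p = 0.0075), and the transcription factor gene Tcf4 (-0.57, 0.00904). Their list summed to 3393 to 3787 and 4540 to 5714. Of the megakaryocyte (9 tested), basophil and mast cell (12) and eosinophil (9) lists, 0 members passed limma's test or edgeR's. At an unadjusted p under 0.05, 0 megakaryocyte genes, 2 basophil and mast cell genes (lower), and 1 higher and 1 lower eosinophil gene were found, and by DESeq2 1 basophil and mast cell gene was lower.

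The change at day 3 was set against that in the other 2 leukemias, NUP98-DDX10 and NUP98-JARID1A, each with 3 libraries after 3 days of the same doxycycline treatment and 4 untreated ones, in cells of the same strain and sort. These share no library with NUP98-NSD1. At day 3, 17 genes were higher and 120 lower in NUP98-DDX10 and 1028 higher and 965 lower in NUP98-JARID1A cells. The difference of the NUP98-NSD1 effect from the mean effect of the other 2 fusions passed the test in 468 genes, 237 with a higher (1.87%) and 231 with a lower (1.82%) value in NUP98-NSD1. Without NUP98-NSD1 day 3 library 1, 2 or 3 these counts were 117, 135 and 139 higher and 103, 131 and 141 lower, and without untreated library 3 they were 153 and 134.

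Tnf and Tcf7 fell in NUP98-NSD1 cells beyond what the other fusions showed. Tnf had 240 to 322 at day 3 and 176 to 343 untreated in NUP98-DDX10, and 342 to 457 and 194 to 444 in NUP98-JARID1A, so that in both the groups overlapped and the levels lay near those of NUP98-NSD1 cells at day 3. The difference in Tnf was -2.82 ± 0.34 (adjusted p = 1.14e-05), with -2.80 against NUP98-DDX10 (0.00016) and -2.85 against NUP98-JARID1A (4.67e-05). Tcf7 was hardly expressed in the other leukemias even before doxycycline, at 0 to 3.19 at day 3 and 0 to 3.49 untreated in NUP98-DDX10 and at 7.75 to 16.2 and 11.7 to 25.2 in NUP98-JARID1A cells. Its difference was -4.08 ± 0.69 (adjusted p = 0.000817), and by edgeR it had an adjusted p of 0.0639. Camk1d, which rose in NUP98-NSD1 cells, had 1576 to 1875 at day 3 and 1987 to 2232 untreated in NUP98-DDX10 and 1445 to 1924 and 981 to 1609 in NUP98-JARID1A, with a difference of 1.52 ± 0.17 (adjusted p = 7.47e-06). Adam19 had a difference of 1.85 ± 0.41 (adjusted p = 0.00941), although NUP98-JARID1A cells held at most 15.8 normalized counts of it.

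Dmkn, the secreted protein dermokine, and Gpnmb fell in NUP98-NSD1 and rose in NUP98-JARID1A cells. Dmkn had 251, 209 and 326 at day 3 against 710, 790, 575 and 550 untreated in NUP98-NSD1 cells (-1.33, adjusted p = 0.012), 122 to 176 against 60.2 to 70.9 in NUP98-DDX10 (1.14, adjusted p = 0.113) and 62.1 to 83.3 against 7.74 to 23.0 in NUP98-JARID1A (2.07, adjusted p = 8.96e-05). The day 3 libraries thus lay below the untreated ones in NUP98-NSD1 and above them in both other models, and the difference was -2.93 ± 0.42 (adjusted p = 0.000112). Within NUP98-NSD1, the call of Dmkn was lost without day 3 library 1 (0.0503) or 2 (0.0771). Gpnmb had 611 to 1071 at day 3 against 102 to 531 untreated in NUP98-JARID1A cells (1.58, adjusted p = 0.0438), and the difference of -3.06 ± 0.66 (adjusted p = 0.00692) was -4.13 against NUP98-JARID1A (0.00122) and -2.0 against NUP98-DDX10 (0.206).

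The differences of Sh3pxd2b and Lamc1 were -3.37 and -3.63 against NUP98-JARID1A (adjusted p = 0.0013 and 0.000704) and -0.76 and -0.50 against NUP98-DDX10 (0.659 and 0.807). Sh3pxd2b, an adaptor of podosomes, and the laminin gene Lamc1 did not pass the test within NUP98-NSD1 (-0.59 and -1.0, adjusted p = 0.473 and 0.177). Lamc1, with 510, 473 and 410 at day 3 against 782, 905, 933 and 1108 untreated, did pass there by edgeR (0.04), by DESeq2 (0.0421) and with a pseudocount of 8 (0.0392), and in the fit of 7 libraries both genes passed (0.00787 for Sh3pxd2b and 0.00347 for Lamc1). In NUP98-JARID1A cells they had 290 to 586 at day 3 against 16.2 to 130 untreated and 10.7 to 19.6 against 0 to 3.87. Their differences from the mean of both fusions were -2.07 each (adjusted p = 0.0279 and 0.0324). Shisa2 and Lhfpl2 had differences of -1.89 each (adjusted p = 0.00372 and 0.0398). On the higher side were Ctse (1.52, adjusted p = 0.0111), Arl4c, a small GTPase (1.23, 0.0121), Samd9l, an antiviral and growth restraining protein (1.49, 0.0273), and Spaca9 (1.18, 0.0043). Btla, an inhibitory receptor of lymphocytes, and the orphan receptor gene Gpr171 had differences of 1.58 and 1.41 (adjusted p = 0.0413 and 0.0468), but within NUP98-NSD1 they did not pass (0.71 and 0.80, adjusted p = 0.244 and 0.134). In the 21 fits that each left out 1 library, the call was lost in 18 for Lhfpl2 and for Gpr171 (up to 0.119 and 0.139), 16 for Btla (0.133), 8 for Lamc1 (0.0919), 7 for Sh3pxd2b (0.0839), 6 for Samd9l (0.13) and 1 for Arl4c (0.0549, without NUP98-NSD1 day 3 library 2).

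**Figure D5:**
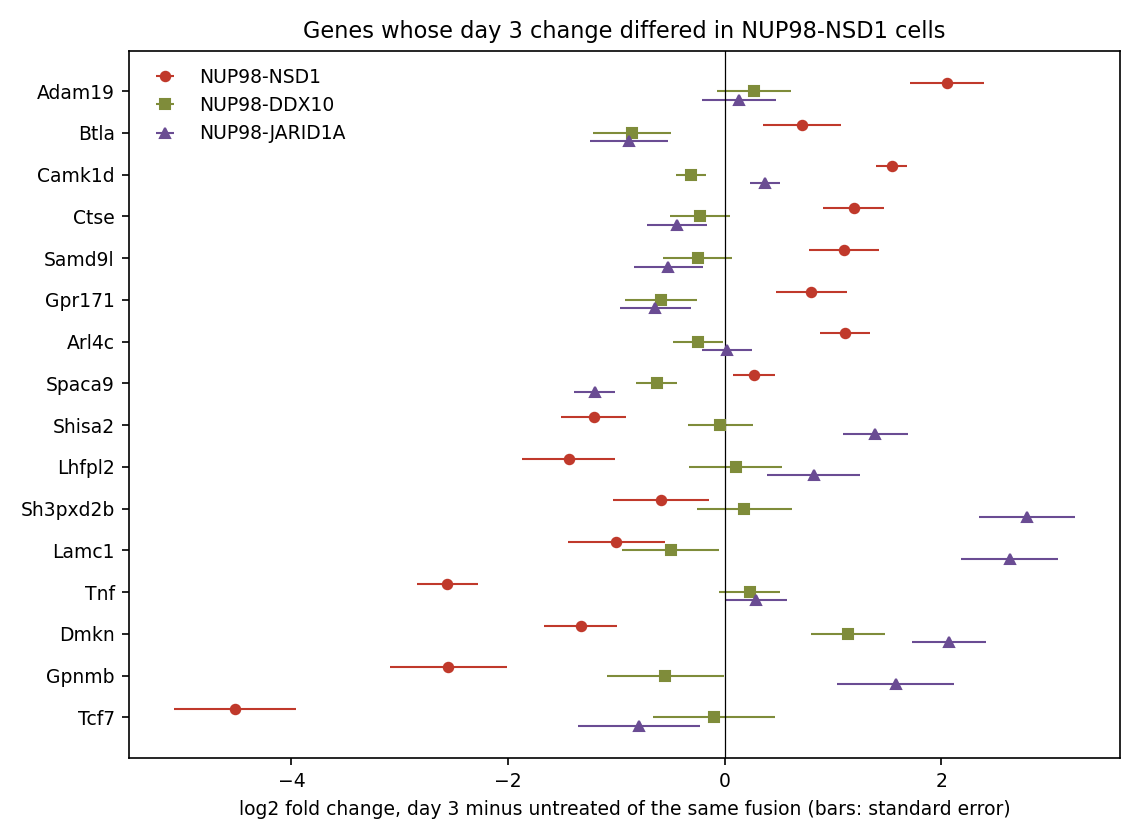
Log2 fold change (day 3 minus untreated of the same fusion) with its standard error for the 16 genes named for the size of the difference between NUP98-NSD1 (red circles) and the other 2 fusions (NUP98-DDX10, green squares; NUP98-JARID1A, purple triangles). Tcf7 and Tnf lie at -4.52 and -2.56 in NUP98-NSD1, while Lamc1 and Sh3pxd2b lie at 2.63 and 2.79 in NUP98-JARID1A.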

How the data were processed

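RNA from bone marrow cells sorted for GFP and CD45.2 was sequenced. The submitters' processing notes name FastQC, STAR, SAMtools, featureCounts and DESeq2 and the builds GRCm38 and mm10, and the counting strand is not given in the sources used here. The deposited signal values are the authors' normalized counts, and dividing them by the smallest step in each library gave whole reads (within 0.01 of a read) for 100% of values in each of the 33 libraries, on which edgeR called 1211 genes. All 33 RNA libraries were fitted together (10 groups) on log2(value + 1) by limma (version 3.58.1, R 4.3.3), over 12682 genes and 5 constructs with at least 10 in at least 3 libraries, with Benjamini-Hochberg adjustment and a threshold of 0.05. The fit was checked on simulated data. edgeR 4.0.16 and DESeq2 1.42.0 on the recovered reads, quantile normalization, pseudocounts of 0.5 and 8, no filter, a filter at 50, only the libraries compared, a replicate block and fits without each library were the alternatives. Promoters are RefSeq windows.

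Lists and members were chosen with earlier results of these data known. Named genes were the fusion constructs and parts and Cdk6, the 15 largest rises and falls among called genes above the median level with groups that did not overlap, the called list members with the smallest p, and, among differences from the other fusions that passed the test, the 8 largest each way. Further list members were picked after their values were seen. Genes of the mitochondrial genome are not analysed here, and a few genes that the rule names are not reported here.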

Additional observations from a re-analysis of the deposited data

Results flagged for a closer look

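A single untreated library lay apart from the other 3 in 7 of the 156 features checked, and chance alone meets this test in about 1 in 20 groups. Ube2c had 3598 normalized counts in untreated library 3, against 4284 to 4326 in the other 3 untreated libraries. Il10rb had 1989 in untreated library 2 and 1823 to 1850 in the others, and Rb1 had 1978 in untreated library 2 and 2341 to 2398 in the others. Mrpl44 had 928 in untreated library 4 and 1061 to 1066 in the others. The other 3 features rest on single reads or a few: Car1 with 0.835 in untreated library 4 and 0 elsewhere, Ear2 with 3.42 in untreated library 1 and 0.835 to 0.939 elsewhere, and the NUP98-DDX10 construct with 0.893, which is 1 read, in untreated library 3 and 0 elsewhere.

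The 16 genes below had the 8 largest differences each way among genes above the median level. Passing limma's test, with the same sign against each other fusion, was a condition for listing them. The value given is the day 3 effect of NUP98-NSD1 minus the mean day 3 effect of the other fusions. It was positive in Adam19 (1.85, adjusted p = 0.00941), Btla (1.58, 0.0413), Camk1d (1.52, 7.47e-06), Ctse (1.52, 0.0111), Samd9l (1.49, 0.0273), Gpr171 (1.41, 0.0468), Arl4c (1.23, 0.0121) and Spaca9 (1.18, 0.0043). It was negative in Tcf7 (-4.08, 0.000817), Gpnmb (-3.06, 0.00692), Dmkn (-2.93, 0.000112), Tnf (-2.82, 1.14e-05), Sh3pxd2b (-2.07, 0.0279), Lamc1 (-2.07, 0.0324), Lhfpl2 (-1.89, 0.0398) and Shisa2 (-1.89, 0.00372).

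The NUP98-HOXA9 construct, which none of these cells is labelled to carry, had 43 reads over the 7 libraries, with 1, 3 and 7 at day 3 and 9, 10, 8 and 5 untreated, against 0 in the control libraries. The source of these reads was not tested.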

How the results depend on the processing

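The fall of the fusion transcript kept its call in every alternative run, at -10.27 to -9.91. The counts of genes called depended most on which libraries shared the estimate of the spread. In a fit of only the libraries compared, 1842 genes were higher and 1676 lower at day 3, and 728 and 644 differed from the other fusions. The labels do not say whether title numbers pair the samples. Same-numbered samples had correlations of deviations of -0.292 to -0.0509, and differently numbered ones of -0.101 to 0.201. These cannot decide it, since deviations from the mean of a group of 3 or 4 libraries depend on each other. With the replicate number as a block in that smaller fit, 928 genes were higher and 853 lower at day 3, and 454 and 394 differed from the other fusions. Of the 171 results of 1 gene or construct, 23 lost the call with the block and 11 gained it. Among those lost were the day 3 changes of Hoxb6 (adjusted p = 0.0519), Abcg3 (0.0528), Fcgr1 (0.0571) and Ltf (0.104). Without 1 library at a time, 301 to 466 genes were higher and 320 to 444 lower at day 3, and 117 to 248 higher and 103 to 229 lower in the difference from the other fusions. Fewer samples are in each such fit; the cause of the size of the loss was not tested. Over the 171 results of 1 gene or construct, 2560 of 2956 alternative values kept their side of the threshold or had no adjusted p. Another 341 lost the call and 55 gained it, and 0 called results changed direction. Results that passed in neither fit were counted as kept even where the sign changed. Hoxb4, for example, had 0.07 in the main fit and -0.05 to 0.14 in fits that left out 1 library. Depth limits genes with few reads, such as Car1 and Trim10, where 1 read moves the log2 value.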
